A study of Homo sapiens with 19 samples.

Results

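The genes described here are 10 regulators, receptors, enzymes and transporters of bile acid metabolism, taken by symbol from the 34825 gene symbols of each deposited table: NR1H4, NR0B2, FGF19, FGFR4, KLB, ABCB11, SLC10A1, BAAT, SLC27A5 and ABCC2. The libraries were stranded mRNA-seq libraries of HepG2, a human liver cancer cell line, and each experiment was compared within its own table. In the first experiment the siRNA was NTG, the control, or siINO80#1 or siINO80#2, which target the ATPase of the INO80 chromatin remodeling complex, at 50 nM and with 3 libraries per group. In the second, cells were kept from 3 days before transfection in EPZ-6438 (1 μM), which inhibits EZH2 and so the methylation of H3K27, or in DMSO. They then received NTG or siMCRS1, which targets a further subunit of the complex, again at 50 nM, in the groups DMSO NTG (2 libraries), DMSO siMCRS1 (3), EPZ-6438 NTG (3) and EPZ-6438 siMCRS1 (2). Cells were harvested 72 h after transfection. All groups are the same cell line and all carry an siRNA. The MCRS1 knockdown carries 1 siRNA label and the control a single label, NTG, in every comparison, and both INO80 siRNAs were compared with the same 3 NTG libraries. The labels do not say that replicates were separate cultures, so p-values measure the spread between these libraries, which may be technical.

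Hepatocytes make bile acids from cholesterol, couple them to glycine or taurine and pump them into bile. The nuclear receptor FXR (gene NR1H4) binds bile acids and induces SHP (NR0B2), a repressor of the genes for bile acid synthesis, while the intestinal hormone FGF19 signals to the liver through FGFR4 and its coreceptor β-klotho (KLB) to the same end. The bile acid-CoA ligase SLC27A5 and the conjugating enzyme BAAT add the amino acid. SLC10A1 (NTCP) takes bile acids up from blood, ABCB11 (BSEP) exports them across the canalicular membrane, and ABCC2 (MRP2) exports conjugated organic anions there.

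On GRCh38.p14, NR1H4 lies on the plus strand at chr12:100473866-100564414, FGFR4 on the plus strand at chr5:177086915-177098144, KLB on the plus strand at chr4:39406930-39451533 and ABCC2 on the plus strand at chr10:99782640-99852594. On the minus strand lie NR0B2 (chr1:26911489-26913975), FGF19 (chr11:69698238-69704022), ABCB11 (chr2:168915390-169031324), SLC10A1 (chr14:69775416-69797241), BAAT (chr9:101360417-101385006) and SLC27A5 (chr19:58498333-58511992). Promoters of 250 bases before to 50 bases after the annotated start were found for 8 of the 10 genes in RefSeq (GRCh38.p14), all but NR0B2 and FGF19. The lines that follow give them, 5′ to 3′ on the gene's own strand, for the 4 of these genes whose mRNA levels fell in at least 3 of the 4 siRNA comparisons with NTG. Capitals mark AGGTCA, the binding word of nuclear receptors, or its variant with a T at the third base, AGTTCA, on either strand. The windows are chr12:100503110-100503409 for NR1H4, which lies inside the annotated gene, chr5:177086665-177086964 for FGFR4, chr4:39406680-39406979 for KLB and, on the minus strand, chr19:58511943-58512242 for SLC27A5.
NR1H4: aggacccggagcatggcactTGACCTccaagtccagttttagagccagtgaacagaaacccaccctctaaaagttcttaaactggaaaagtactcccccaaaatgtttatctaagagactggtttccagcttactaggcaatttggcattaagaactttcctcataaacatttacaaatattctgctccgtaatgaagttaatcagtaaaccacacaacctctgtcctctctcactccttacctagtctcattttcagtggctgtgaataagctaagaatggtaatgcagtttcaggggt
FGFR4: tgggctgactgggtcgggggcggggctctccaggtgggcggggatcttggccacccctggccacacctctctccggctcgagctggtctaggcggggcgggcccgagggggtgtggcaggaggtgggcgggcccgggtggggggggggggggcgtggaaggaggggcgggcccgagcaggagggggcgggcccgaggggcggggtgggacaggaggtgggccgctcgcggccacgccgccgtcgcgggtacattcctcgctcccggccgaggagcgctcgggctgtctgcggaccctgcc
KLB: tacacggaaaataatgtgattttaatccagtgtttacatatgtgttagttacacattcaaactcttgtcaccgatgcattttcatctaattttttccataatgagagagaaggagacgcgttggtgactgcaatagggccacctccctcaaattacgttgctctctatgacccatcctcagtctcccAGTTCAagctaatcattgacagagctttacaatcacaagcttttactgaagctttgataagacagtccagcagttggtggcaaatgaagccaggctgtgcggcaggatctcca
SLC27A5: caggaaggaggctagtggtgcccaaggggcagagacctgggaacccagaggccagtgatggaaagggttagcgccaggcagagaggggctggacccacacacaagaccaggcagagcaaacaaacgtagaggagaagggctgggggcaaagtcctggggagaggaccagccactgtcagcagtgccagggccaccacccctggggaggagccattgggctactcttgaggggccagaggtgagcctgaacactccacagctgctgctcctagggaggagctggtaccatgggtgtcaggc

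These 4 promoters had little in common in base composition. GC content was 41.7% in NR1H4 and 42.3% in KLB against 62.7% in SLC27A5 and 78.7% in FGFR4, with a median of 58.7% over all promoters, and FGFR4 held 30 CpG against 2 in NR1H4, 6 in KLB and 2 in SLC27A5. AGGTCA stood in NR1H4 from base -230 to -225 before the start, on the strand opposite to the gene, and 13.8% of the 35116 promoters of the table held it. AGTTCA stood in KLB from -63 to -58, on the gene's strand, and 10.4% of all promoters held it. Among the other 4 member promoters, SLC10A1 held the former and ABCB11 the latter. A word of HNF1 factors, GTTAAT, stood in NR1H4 from -53 to -48, and 6.88% of all promoters held it. The pair AGGTCANTGACCT, an inverted repeat spaced by 1 base as FXR with its partner RXR prefers, was found in 0 promoters of the table. The direct repeat AGGTCANAGGTCA was found in 8 promoters, 0.0228% of all, and in no member. AAGATGG, a word of YY1, was in 5.84% of promoters and in no member. TATAAA was in 11.5%, among the members in ABCC2 only, where it stood from -236 to -231, far from the start. Both strands were searched for each word, the words within a repeat overlap it, and a match in such a window is a description of its letters.

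Depth ranged from 17093574 to 25369547 reads per library in the first experiment and from 26038505 to 47397233 in the second. Library C of siINO80#2 stood apart from the other libraries of its group. Compared with A and B over genes, its reads gave a chi-square per degree of freedom of 84.3 and 121. The other pairs within a group of that experiment gave 9.45 to 18.7. Called changes of the described genes with siINO80#2 are therefore also given without library C. All other values with siINO80#2 include it, among them those of markers, lists, INO80, EZH2 and NUDC and the correlations. Pairs in the drug experiment gave 21.3 to 71.3. The knockdowns were seen in the targeted genes: INO80 was at 1264 ± 82.2 (SD, n = 3) normalized counts in NTG, 608 ± 31.3 with siINO80#1 and 460 ± 21.7 with siINO80#2, and MCRS1 with its siRNA was at 7.99% of its NTG mean in DMSO and 7.93% in EPZ-6438. INO80 itself was also lower with siMCRS1, by 0.27 on the log2 scale in DMSO (adjusted p = 0.0387, limma) and by 0.35 in EPZ-6438 (0.00966). All 8 hepatocyte markers were expressed in both tables. Their sum, mostly APOB, ALB and AFP, was 710812 to 875388 normalized counts in NTG. It was 816941 to 1008821 with siINO80#1 and 576250 to 791267 with siINO80#2. In the drug experiment this sum was 935297 to 1074040 in DMSO NTG and 1002434 to 1216982 in DMSO siMCRS1. Under EPZ-6438 it was 1037078 to 1144497 with NTG and 1181372 to 1315692 with siMCRS1. Such a sum does not show how the less abundant hepatocyte markers moved. Over the drug libraries, in reads not scaled for depth, TTR had 1312 to 8732 and FGB 5598 to 33933, where ALB had 138372 to 315799. The summed level of 6 bile duct markers was 24596 to 28840 normalized counts in NTG, 26495 to 28374 with siINO80#1 and 35274 to 41459 with siINO80#2. In the drug experiment it was 40277 to 44973 in DMSO NTG and 63682 to 80277 in DMSO siMCRS1, and 37832 to 47727 in EPZ-6438 NTG and 55114 to 60126 in EPZ-6438 siMCRS1. Nearly all of it was KRT19, SPP1, SOX9 and EPCAM, while KRT7 had means of 4.03 and 13.6 and CFTR of 1.91 and 0. The sum of 5 enterocyte markers, nearly all VIL1, was 4425 to 4955 in NTG, 5910 to 7062 with siINO80#1 and 5131 to 5362 with siINO80#2, then 5962 to 6932 in DMSO NTG, 2727 to 3806 in DMSO siMCRS1, 7449 to 8813 in EPZ-6438 NTG and 2737 to 3498 in EPZ-6438 siMCRS1. The 6 stromal markers, mostly PDGFRB and COL1A1, summed to 259 to 287 in NTG, 464 to 487 with siINO80#1 and 297 to 319 with siINO80#2. In the drug experiment their sum was 347 to 368 in DMSO NTG and 563 to 908 in DMSO siMCRS1, and 259 to 408 in EPZ-6438 NTG and 842 to 890 in EPZ-6438 siMCRS1. The 6 leukocyte markers summed to 37008 to 40993 in NTG, 39254 to 45316 with siINO80#1 and 49207 to 56253 with siINO80#2, and to 37800 to 69473 over the drug libraries, nearly all of it LYZ, the gene for lysozyme, with a mean of 44229 and 52817 normalized counts in the 2 tables. CD68 had means of 1002 and 919, CD14 of 13.8 and 19.4 and PTPRC, the leukocyte antigen CD45, of 22.3 and 15.6, while the lymphocyte markers CD3E and MS4A1 had 0 to 3 reads in a library. The 4 endothelial markers summed to 207 to 245 in NTG, 244 to 288 with siINO80#1, 281 to 340 with siINO80#2 and 176 to 281 over the drug libraries. Most of this was PECAM1 (means of 259 and 181), and KDR had at most 1 read. The part of these marker lists in the results was not tested, and in bulk libraries fewer cells of a type and less RNA per cell cannot be told apart.

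The first comparison asked how these genes differed 72 h after transfection with an INO80 siRNA. NR1H4 had the largest change of the 7 tested members with either siRNA and fell, KLB, NR0B2 and SLC27A5 fell with both, FGFR4 fell with siINO80#2, and ABCC2 rose with both. The limma test ran on log2(normalized count + 1) over the 14034 genes whose mean was at least 10, and a gene is called at a Benjamini-Hochberg adjusted p under 0.05. Of the 10 genes 7 passed this filter, and FGF19, ABCB11 and SLC10A1 did not. With siINO80#1, 5 of the 7 were called, 1 higher and 4 lower, where 20.7% of all genes tested were called higher and 20.8% lower. With siINO80#2, 6 of the 7 were called, 1 higher and 5 lower, against 26.6% and 28.4% of all genes, and the same 6 were called without its library C. The median log2 change of the 7 was -0.65 with siINO80#1 and -0.79 with siINO80#2, while that of all genes tested was 0.00 in both. Scaling the libraries to equal totals instead moved the split over all genes from 2912 higher and 2921 lower to 2165 and 3276 with siINO80#1, and from 3733 and 3992 to 2856 and 4526 with siINO80#2, with a shift of the all-gene median of -0.08 and -0.11.

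NR1H4, the bile acid receptor, was at 1561, 1351 and 1731 normalized counts in NTG libraries A, B and C, at 482, 320 and 422 with siINO80#1, and at 201, 168 and 150 with siINO80#2. The 3 groups did not overlap, and each step was larger than the spread within groups. The mean with siINO80#1 was 26.3% of NTG (log2 change -1.93, SE 0.16, adjusted p = 8.91e-06), and with siINO80#2 it was 11.2% (-3.16, SE 0.16, 2.89e-07, and -3.06 without library C). Between the siRNAs, NR1H4 differed by -1.22 on the log2 scale (adjusted p = 0.000695), lower with siINO80#2, and by -1.13 (0.00181) without library C.

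NR0B2, which FXR is known to induce, read 1521, 1350 and 2047 normalized counts in NTG, 1028, 849 and 1242 with siINO80#1, and 920, 858 and 942 with siINO80#2. All 6 knockdown libraries were below all 3 NTG libraries, and the knockdown groups overlapped each other. The log2 change was -0.65 (SE 0.16, adjusted p = 0.0075) with siINO80#1 and -0.83 (SE 0.16, 0.00117) with siINO80#2, -0.86 without library C. With siINO80#2 its 95% interval, -1.19 to -0.48, did not reach that of NR1H4, -3.51 to -2.80. No difference between the siRNAs was called (-0.18, 95% interval -0.53 to 0.17, adjusted p = 0.46). The gene lies opposite to NUDC, but in GENCODE v44 their exons share 0 bases. NUDC fell as well, with log2 changes of -0.30 (adjusted p = 0.0082) with siINO80#1 and -0.29 (0.0072) with siINO80#2.

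Of the hormone receptor pair, KLB fell with both siRNAs and FGFR4 with siINO80#2. KLB, the coreceptor, was at 3684, 3703 and 4334 normalized counts in NTG, 2577, 2116 and 2602 with siINO80#1 and 1269, 1297 and 1162 with siINO80#2. Its groups were fully separate, at 62.2% and then 31.8% of the NTG mean. The log2 changes were -0.69 (SE 0.10, adjusted p = 0.000298) and -1.65 (SE 0.10, 5.25e-07, and -1.60 without library C). The siRNAs differed by -0.96 (0.0002), and by -0.92 (0.000471) without library C. FGFR4, the receptor kinase, was at 4673, 4631 and 5020 normalized counts in NTG, 4211, 4018 and 4513 with siINO80#1 and 2963, 3048 and 2316 with siINO80#2, lowest in library C. The siINO80#1 libraries lay just below NTG without a call (log2 change -0.17, 95% interval -0.39 to 0.06, adjusted p = 0.21), although leaving out library C of siINO80#2 from the shared fit brought that adjusted p to 0.0392. With siINO80#2, FGFR4 fell by 0.79 on the log2 scale (SE 0.10, adjusted p = 7.64e-05), and without library C by 0.67 (2.34e-05). Against siINO80#1 it differed by -0.62 (0.00219), and without library C by -0.50 (0.00115).

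The ligand and 2 of the transporters were close to or below the floor of these libraries. FGF19 had 3 reads in all 9 libraries together, 1 in NTG library C and 2 in siINO80#2 library B. ABCB11 had 4 reads, 1 and 2 in siINO80#1 libraries B and C and 1 in siINO80#2 library B. A count of 0 allows up to 3 reads, worth 2.30 to 3.58 normalized counts here by counting error alone, so no difference was detectable for either gene. SLC10A1, the uptake transporter, had 9, 6 and 10 reads in NTG, 0, 4 and 4 with siINO80#1 and 5, 3 and 7 with siINO80#2. All siINO80#1 libraries were below all NTG libraries, and the siINO80#2 libraries overlapped both. When genes of every level were tested, its log2 change was -1.74 (adjusted p = 0.064) with siINO80#1 and -0.78 (0.42) with siINO80#2, neither of them called.

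**Figure D1:**
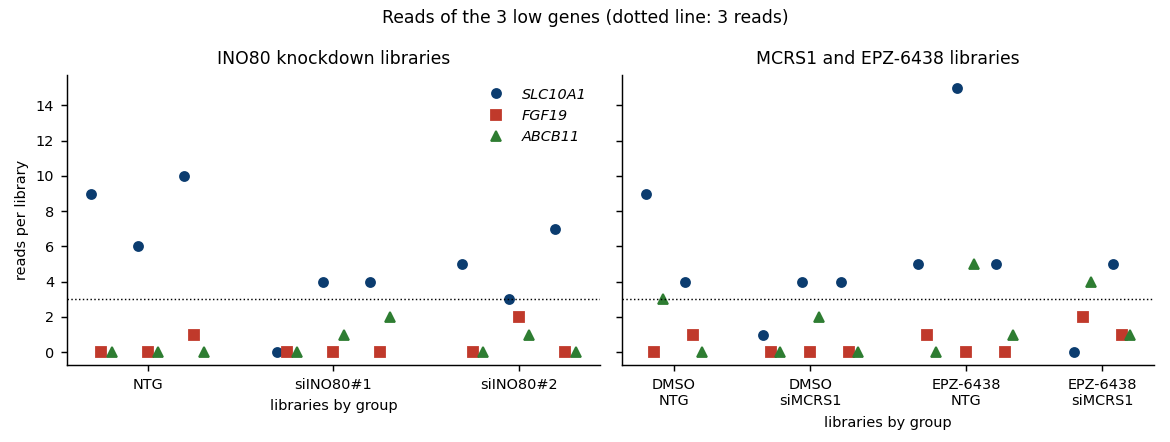
Reads per library of SLC10A1 (circles), FGF19 (squares) and ABCB11 (triangles) by group, in the INO80 experiment (left) and in the drug experiment (right), with a dotted line at 3 reads. FGF19 stayed at 0 to 2 reads and ABCB11 at 0 to 5 in every library, while SLC10A1 ranged from 0 to 15.

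Of the conjugating enzymes, SLC27A5 fell with both siRNAs and BAAT was not called against NTG with either. SLC27A5 was at 207, 201 and 228 normalized counts in NTG, 130, 136 and 125 with siINO80#1 and 125, 148 and 126 with siINO80#2. Both siRNAs left it near the same level, at 61.3% and 62.5% of the NTG mean, with log2 changes of -0.70 (SE 0.12, adjusted p = 0.000788) and -0.68 (SE 0.12, 0.000571, and -0.64 without library C) and a difference between them of 0.02 (95% interval -0.23 to 0.28). Of its exonic bases in GENCODE v44, 14.1% overlap exons of ZNF446 on the opposite strand, and whether the quantification used strand is not stated, so a share of these reads is uncertain. ZNF446 was at 67.2 ± 11.5 (SD, n = 3) normalized counts in NTG and was not called with either INO80 siRNA. BAAT was at 264, 216 and 184 normalized counts in NTG, 184, 117 and 130 with siINO80#1, and 201, 535 and 227 with siINO80#2. Library B of siINO80#2 stood far above every other library. BAAT was not called with either siRNA against NTG (log2 change -0.63, adjusted p = 0.14, and 0.40, 0.32). It was called higher with siINO80#2 than with siINO80#1 (1.04, SE 0.32, adjusted p = 0.0431), without library C of siINO80#2 that difference was 1.21 (0.0358), and without its library B it was 0.59 (0.0622) and the change with siINO80#2 against NTG was -0.04. The same call was lost without any 1 of the 3 NTG libraries (adjusted p = 0.0541, 0.0612 and 0.0579 without A, B and C), which enter only through the shared variance, or without library B (0.136) or C (0.114) of siINO80#1. The change with siINO80#1 reached an adjusted p of 0.0197 without library B of siINO80#2. BAAT spans processed pseudogenes on its own strand, so its counts may be shared with them.

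ABCC2, the canalicular exporter of organic anions, rose against the trend of the other members. It was at 10891, 10675 and 11232 normalized counts in NTG, 12767, 12385 and 13163 with siINO80#1 and 14949, 13476 and 14801 with siINO80#2. The 3 groups did not overlap. The rise was small with siINO80#1 (116.8% of NTG, log2 change 0.22, SE 0.07, adjusted p = 0.0274) and larger with siINO80#2 (131.8%, 0.40, SE 0.07, 0.000774, and 0.38 without library C), and the difference between the siRNAs was not called (0.17, 95% interval 0.02 to 0.33, adjusted p = 0.11). The siINO80#1 call was lost when library totals were made equal (0.14, adjusted p = 0.147) and without NTG library A (0.0753) or B (0.0846) or siINO80#1 library A (0.0699) or C (0.101), while the direction held. The siINO80#2 call held under every alternative run.

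**Figure D2:**
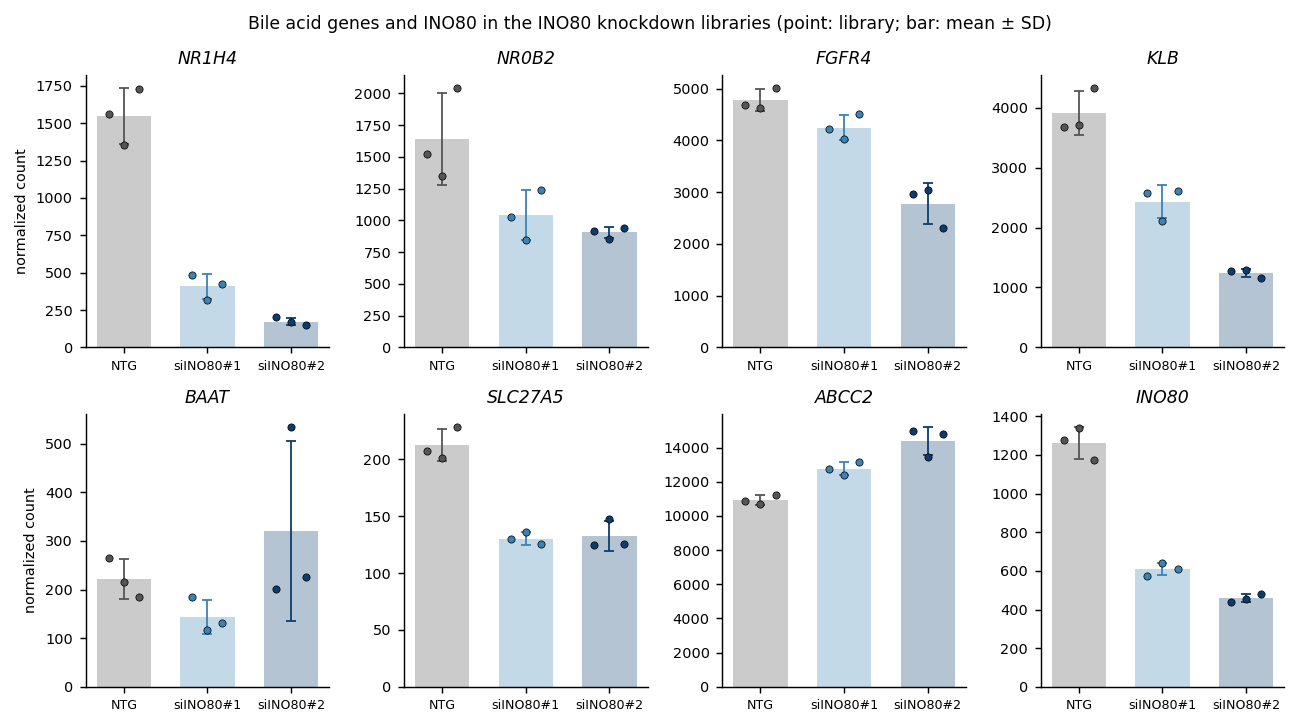
Normalized counts (vertical axes, from 0) of the 7 tested bile acid genes and of INO80 in NTG, siINO80#1 and siINO80#2 libraries, with points for libraries and bars for the mean ± SD (n = 3). NR1H4 and KLB step down from NTG to siINO80#1 to siINO80#2, ABCC2 steps up, and BAAT has 1 siINO80#2 library at 535.

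Between the siRNAs, 4 of the 7 genes were called, with BAAT higher and FGFR4, KLB and NR1H4 lower with siINO80#2, where 9.48% of all genes tested were called higher and 12.6% lower. In the same comparison INO80 itself had a log2 change of -0.40 (adjusted p = 0.00577) and EZH2 one of -0.43 (0.00406). NR0B2, SLC27A5 and ABCC2 were not called in this comparison. Against NTG, EZH2 had a log2 change of -0.04 with siINO80#1 (limma, adjusted p = 0.753) and of -0.47 with siINO80#2 (0.000549).

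The second comparison asked the same of siMCRS1, in cells under DMSO or EPZ-6438. NR1H4, NR0B2, FGFR4, KLB and SLC27A5 fell with siMCRS1 under both treatments, and BAAT and ABCC2 were not called under either. Of the 7 genes tested (of 14312 in all), 5 were called lower and 0 higher in DMSO, where 23.1% of all genes were called higher and 24.6% lower, and edgeR on the recovered reads called the same 5. In EPZ-6438, again 5 were called lower and 0 higher, against 26.8% higher and 26.9% lower over all genes. The 7 genes had a median log2 change of -1.28 in DMSO and -1.30 in EPZ-6438, and all genes of 0.00 and 0.01. With equal library totals the split over all genes went from 3307 higher and 3523 lower to 1894 and 5098 in DMSO and from 3839 and 3847 to 2296 and 5313 in EPZ-6438, with the all-gene median at -0.23 in both. These 2 comparisons have no library in common, but they used the same siRNAs and took their variance from 1 fit of all 10 libraries.

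NR1H4 was at 2246 and 2038 normalized counts in DMSO NTG, at 909, 892 and 688 in DMSO siMCRS1, at 2702, 2827 and 3119 in EPZ-6438 NTG and at 1335 and 1029 in EPZ-6438 siMCRS1. Every siMCRS1 library was below every NTG library of either treatment. The mean was 38.7% of NTG in DMSO (log2 change -1.38, SE 0.15, adjusted p = 7.08e-05) and 41.0% in EPZ-6438 (-1.30, SE 0.15, 6.09e-05). NR0B2 was at 2139 and 1584 normalized counts in DMSO NTG, 821, 530 and 480 in DMSO siMCRS1, 2326, 2641 and 1775 in EPZ-6438 NTG and 815 and 613 in EPZ-6438 siMCRS1. It was again fully separate, at 32.8% (-1.63, SE 0.25, adjusted p = 0.000405) and 31.8% (-1.65, SE 0.25, 0.000277) of NTG. NUDC, on the opposite strand and called lower with both INO80 siRNAs, had log2 changes of -0.02 and 0.00 here and was not called.

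FGFR4 was at 7886 and 6177 normalized counts in DMSO NTG, 3240, 2673 and 2414 in DMSO siMCRS1, 9246, 9279 and 8664 in EPZ-6438 NTG and 3094 and 2134 in EPZ-6438 siMCRS1. The receptor kinase fell to 39.5% of NTG in DMSO (log2 change -1.34, SE 0.17, adjusted p = 0.000161) and to 28.8% in EPZ-6438 (-1.82, SE 0.17, 1.83e-05), and the test of the difference between these effects gave -0.48 (95% interval -1.01 to 0.06, unadjusted p = 0.0762 in limma, adjusted p = 1.00). KLB was at 4092 and 4360 normalized counts in DMSO NTG, 2954, 2761 and 2359 in DMSO siMCRS1, 3621, 4778 and 4967 in EPZ-6438 NTG and 3379 and 2830 in EPZ-6438 siMCRS1. The coreceptor was at 63.7% (-0.66, SE 0.15, adjusted p = 0.0046) and 69.7% (-0.51, SE 0.15, 0.0144) of NTG. Without library B of EPZ-6438 siMCRS1 the change of KLB in EPZ-6438 was -0.39 (adjusted p = 0.142) and no longer called.

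SLC27A5 was at 169 and 207 normalized counts in DMSO NTG, 82.4, 70.5 and 75.9 in DMSO siMCRS1, 266, 272 and 268 in EPZ-6438 NTG and 101 and 73.7 in EPZ-6438 siMCRS1. The CoA ligase was at 40.6% of NTG in DMSO (log2 change -1.28, SE 0.19, adjusted p = 0.000336) and 32.5% in EPZ-6438 (-1.63, SE 0.19, 5.73e-05). ZNF446, whose exons overlap it, had log2 changes of -0.55 (adjusted p = 0.0621) and -0.69 (0.0226). BAAT was at 345 and 243 normalized counts in DMSO NTG, 344, 243 and 278 in DMSO siMCRS1, 183, 346 and 101 in EPZ-6438 NTG and 168 and 309 in EPZ-6438 siMCRS1. Its groups overlapped throughout, with log2 changes of -0.02 (95% interval -0.97 to 0.93) and 0.29 (-0.66 to 1.24), so changes of up to about that size in either direction were not detectable.

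ABCC2 was at 13584 and 18937 normalized counts in DMSO NTG, 17120, 17808 and 18625 in DMSO siMCRS1, 10550, 9984 and 14826 in EPZ-6438 NTG and 13399 and 13981 in EPZ-6438 siMCRS1. The NTG libraries spread widely and enclosed the siMCRS1 libraries in both treatments. Its log2 change was 0.15 (95% interval -0.23 to 0.54) in DMSO and 0.24 (-0.15 to 0.62, adjusted p = 0.28) in EPZ-6438, and with equal library totals -0.08 and 0.00. Without the third EPZ-6438 NTG library the change in EPZ-6438 was 0.42 (adjusted p = 0.0395). SLC10A1 had 9 and 4 reads in DMSO NTG, 1, 4 and 4 in DMSO siMCRS1, 5, 15 and 5 in EPZ-6438 NTG and 0 and 5 in EPZ-6438 siMCRS1. FGF19 had 5 reads and ABCB11 16 reads over all 10 libraries, with 3 reads worth 2.13 to 4.30 normalized counts. The SLC10A1 libraries of DMSO overlapped, and in EPZ-6438 both siMCRS1 libraries lay below all NTG libraries in normalized counts. With genes of every level tested, none of the 3 was called: SLC10A1 had log2 changes of -0.68 in DMSO (adjusted p = 0.60) and -1.73 in EPZ-6438 (0.13), FGF19 of -0.48 and 0.80 and ABCB11 of -0.42 and 0.42. With counts this close to the floor these values bound little.

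**Figure D3:**
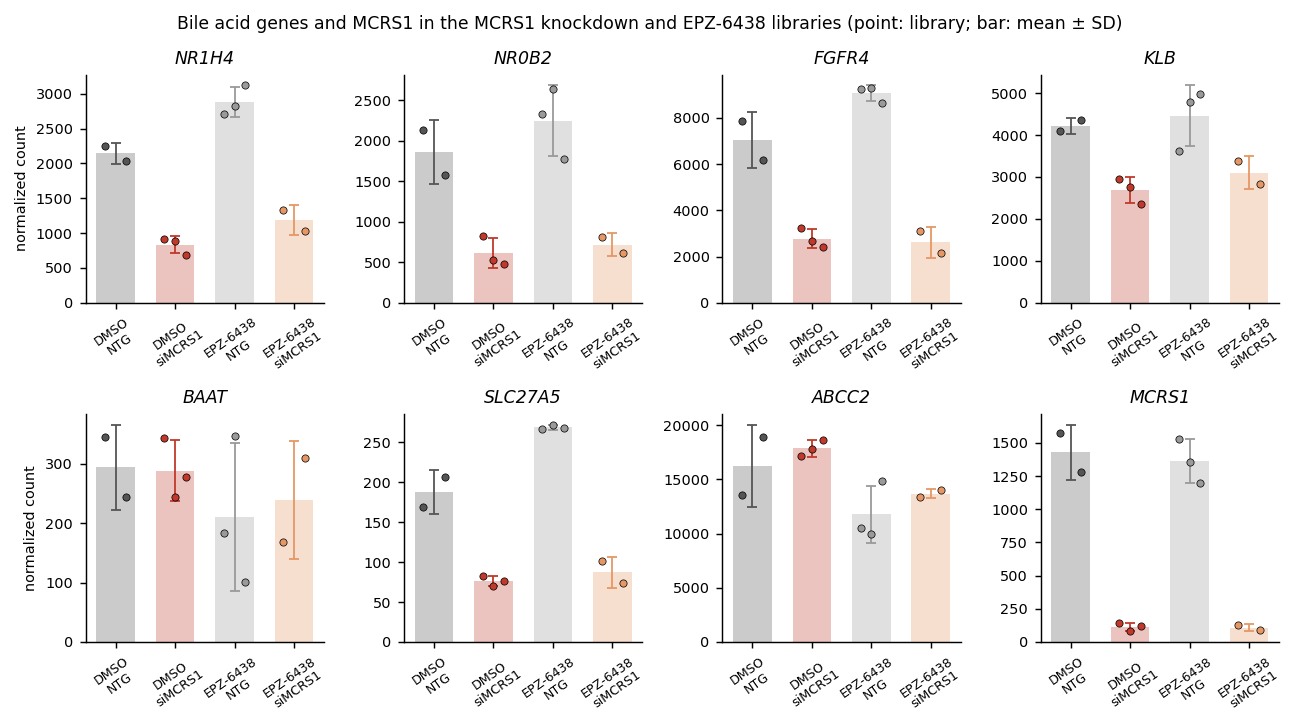
Normalized counts (vertical axes, from 0) of the 7 tested bile acid genes and of MCRS1 in the 4 groups of the drug experiment, with points for libraries and bars for the mean ± SD (n = 2 or 3). NR1H4, NR0B2, FGFR4 and SLC27A5 sit at 28.8% to 41.0% of their NTG means with siMCRS1, KLB at 63.7% and 69.7%, and BAAT and ABCC2 overlap between NTG and siMCRS1.

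The third comparison asked what EPZ-6438 did without and with MCRS1 knockdown. None of the 7 genes was called: 0 were higher and 0 lower with NTG, where 0.321% of all genes were called higher and 0.0629% lower, and 0 and 0 with siMCRS1, against 0.0838% and 0.00699%. edgeR on the recovered reads also called 0 of the 7 in each, and at an unadjusted p under 0.05 limma had 3 with NTG (NR1H4, SLC27A5 and ABCC2) and 1 with siMCRS1 (NR1H4), where 2443 (17.1%) and 1305 (9.12%) of all 14312 genes passed that threshold. NR1H4 levels lay above DMSO in every EPZ-6438 library, with 2702 to 3119 against 2038 to 2246 normalized counts with NTG and 1029 to 1335 against 688 to 909 with siMCRS1. The log2 changes were 0.43 (95% interval 0.09 to 0.76, unadjusted p = 0.0165 in limma, adjusted p = 0.19) and 0.51 (0.18 to 0.84, unadjusted p = 0.00636, adjusted p = 0.32). SLC27A5 with NTG was at 266 to 272 against 169 to 207 normalized counts (0.52, 95% interval 0.11 to 0.94, adjusted p = 0.20), and with siMCRS1 its groups overlapped (0.18, -0.24 to 0.59). FGFR4 with NTG was at 8664 to 9279 against 6177 to 7886 (0.38, 0.00 to 0.75, adjusted p = 0.30), and with siMCRS1 it overlapped (-0.10, -0.48 to 0.28). ABCC2 had lower means under EPZ-6438, at 72.5% of DMSO with NTG (-0.47, -0.85 to -0.08, adjusted p = 0.22) and 76.7% with siMCRS1 (-0.38, -0.77 to 0.00, 0.56). NR0B2, KLB and BAAT overlapped between treatments with either siRNA. The interaction of siMCRS1 with the treatment was called for 0 of the 7 and for 0 (0%) of the 14312 genes by limma, with 336 at an unadjusted p under 0.05, and for 0 by edgeR.

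**Figure D4:**
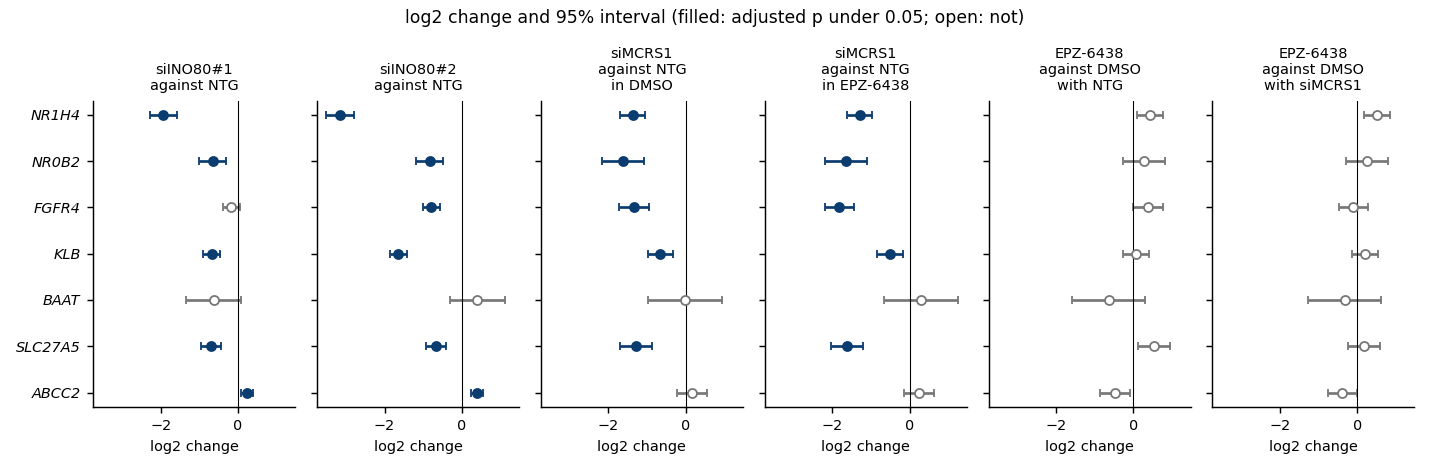
log2 changes of log2(normalized count + 1) with 95% intervals (horizontal axes) for the 7 tested genes in the 4 siRNA comparisons with NTG and the 2 EPZ-6438 comparisons, filled where the adjusted p was under 0.05. NR1H4 lies at -1.93, -3.16, -1.38 and -1.30 in the siRNA panels, and every point of the EPZ-6438 panels is open.

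Other genes of the pathway were read from 5 lists, and list medians are set beside all-gene medians of 0.00, 0.00, 0.00 and 0.01 in the 4 siRNA comparisons. List values with siINO80#2 include its library C. Their shares of calls are set beside those over all genes tested, which were 20.7% higher and 20.8% lower with siINO80#1, 26.6% and 28.4% with siINO80#2, 23.1% and 24.6% with siMCRS1 in DMSO and 26.8% and 26.9% in EPZ-6438. The lists and the members were chosen with earlier results of these data known, so a share above these is a description and no test. Of the bile acid synthesis enzymes, 11 of 16 were tested in the INO80 experiment, and 1 (9.09%) was called higher and 8 (72.7%) lower with each siRNA, with median log2 changes of -0.55 and -0.91. AKR1D1, the Δ4-3-oxosteroid 5β-reductase, fell from 970 ± 82.2 (SD, n = 3) normalized counts in NTG to 129 ± 30.9 with siINO80#1 and 81.8 ± 21.7 with siINO80#2 (log2 changes -2.93 and -3.58). CYP8B1, the sterol 12α-hydroxylase, fell as well (-1.76 and -1.74), as did SLC27A2, a very long chain acyl-CoA synthetase (-1.43 and -1.96). The enzyme that rose was AMACR, a racemase of the side chain (0.39 and 0.36), named after its values were seen. With siMCRS1, 14 enzymes were tested, and 1 (7.14%) was called higher, again AMACR, and 7 (50%) lower in each treatment, with medians of -0.72 in DMSO and -0.81 in EPZ-6438. AKR1D1 had log2 changes of -2.33 and -1.93 and CYP8B1 of -1.98 and -2.18. CYP7A1, the rate-limiting enzyme of the classical route, was not tested in the INO80 experiment. In the drug experiment CYP7A1 was at 20.6 ± 14.2 (SD, n = 2) normalized counts in DMSO NTG and 3.55 ± 2.85 (n = 3) in DMSO siMCRS1, and at 35.3 ± 20.5 (n = 3) in EPZ-6438 NTG and 18.4 and 3.55 in the 2 EPZ-6438 siMCRS1 libraries. It passed the filter through its NTG libraries and lay near the floor of 3 reads in DMSO siMCRS1, 3.30 to 4.30 normalized counts there, so its call among the 7 lower in DMSO is no evidence of its own and no fold change is given.

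Of the other bile acid and canalicular transporters, 11 of 14 were tested in each table. With siINO80#1, 1 (9.09%) was higher and 5 (45.5%) lower (median -0.41), and with siINO80#2 1 and 6 (54.5%, -0.56). With siMCRS1, 2 (18.2%) were higher and 5 (45.5%) lower in each treatment, with medians of -0.10 in DMSO and -0.63 in EPZ-6438. ABCC4, a basolateral exporter, rose with both INO80 siRNAs (log2 changes 0.55 and 0.88) and with siMCRS1 in DMSO and EPZ-6438 (0.91 and 1.12). ABCG8, a subunit of the canalicular sterol exporter, fell with the INO80 siRNAs (-0.88 and -1.26) and with siMCRS1 (-1.36 and -1.25). Its partner ABCG5 fell with siMCRS1 (-1.41 in both treatments) and was not called with the INO80 siRNAs. The uptake carrier SLCO2B1 fell in all 4 (-0.78, -0.96, -1.53 and -1.67).

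Among the nuclear receptors and liver factors, 14 of 15 were tested in the INO80 experiment. With siINO80#1, 1 (7.14%) was higher and 6 (42.9%) lower (median -0.34), and with siINO80#2 0 and 9 (64.3%, -0.72). With siMCRS1, of 15 tested 2 (13.3%) were higher and 10 (66.7%) lower in DMSO (-0.52), and 1 (6.67%) and 10 in EPZ-6438 (-0.59). The oxysterol receptor NR1H3 fell with the INO80 siRNAs (-0.67 and -0.86) and with siMCRS1 (-1.65 and -1.90). PPARA, a fatty acid receptor, fell with the INO80 siRNAs (-0.71 and -0.70), as did NR5A2, an activator of bile acid synthesis genes (-1.51 and -0.96). The xenobiotic receptor NR1I3 fell with siMCRS1 (-1.60 and -2.51), as did the coactivator PPARGC1A (-0.92 and -0.59). NR5A2, named here after its values were seen, was the single gene of the 5 lists called with EPZ-6438. It rose from 109 ± 9.89 (SD, n = 2) to 295 ± 23.9 (n = 3) normalized counts with NTG (log2 change 1.42, SE 0.21, adjusted p = 0.0298), and with siMCRS1 its change of 1.04 was not called (0.117).

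The FGF19 signalling partners called went in both directions. Of 7 tested, 2 (28.6%) were higher and 1 (14.3%) lower with siINO80#1 (median 0.15), 1 and 1 with siINO80#2 (14.3% each, 0.17), and 2 and 2 with siMCRS1 in each treatment (28.6% each, 0.06 in DMSO and 0.17 in EPZ-6438), shares close to those over all genes or below them. FGFR1 rose in all 4 comparisons (0.47, 0.56, 0.72 and 0.93), while FGFR2 fell (-1.62, -2.05, -2.60 and -1.91). The adaptor FRS2 fell with siMCRS1 (-0.52 and -0.55). Of 10 other known FXR targets, 3 of which also stand in the list of transporters, 3 (30%) were higher and 5 (50%) lower with each INO80 siRNA (-0.39 and -0.50), and with siMCRS1 0 and 3 (30%) in DMSO (-0.06) and 2 (20%) and 3 (30%) in EPZ-6438 (-0.35). SULT2A1, a bile acid sulfotransferase, fell in all 4 (-1.75, -3.33, -2.46 and -2.35). KNG1, the gene for kininogen, fell as well (-1.81, -2.89, -1.61 and -1.90). SLC51A, a subunit of the basolateral organic solute transporter, fell with siMCRS1 (-0.62 and -1.26), and ICAM1, an adhesion molecule, rose with each INO80 siRNA (0.55 and 0.55).

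**Figure D5:**
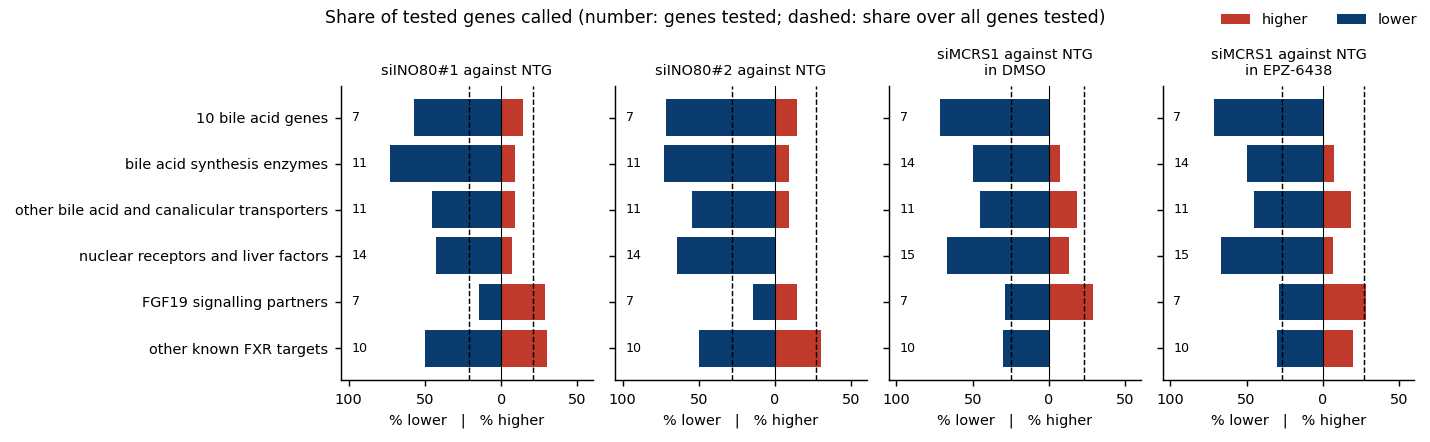
Share of tested genes called lower (left of 0) and higher (right of 0), in percent, for the bile acid genes and the 5 other lists in the 4 siRNA comparisons, with the number tested beside each bar and dashed lines at the shares over all genes tested. The 7 tested bile acid genes reach 71.4% lower in 3 of the 4 panels and 57.1% with siINO80#1. Genes and lists were chosen with earlier results of these data known.

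Across the 9 libraries of the INO80 experiment, Pearson's r of log2 levels with NR1H4 was 0.97 for KLB, 0.89 for NR0B2, 0.87 for FGFR4, 0.87 for SLC27A5, -0.93 for ABCC2 and -0.18 for BAAT. Across the 10 drug libraries it was 0.94, 0.95, 0.95, 0.97, -0.63 and -0.38 in that order. These values are descriptions, since the libraries share the knockdown groups that set most of the spread. Of all genes tested in both tables with a mean of at least 50, ANXA9 (r = 0.99 and 0.99), METTL7A (0.99 and 0.99) and SULT2A1 (0.99 and 0.99) had the pattern most like NR1H4. The closest to NR0B2 was GPANK1 (0.97 and 0.99), to FGFR4 ARL6IP4 (0.98 and 0.99), to KLB RAB11FIP4 (0.95 and 0.96), to SLC27A5 ACSM2A (0.98 and 0.98) and to ABCC2 ZNF655 (0.97 and 0.91). BAAT had no gene this close, with CACNA2D4 (0.76 and 0.84) first.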

How the data were processed

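mRNA-seq libraries of HepG2 cells were grouped by their labels. The authors deposited 1 table per experiment, whose values are a signal that is never below 0, counts per gene after division by a library's size factor. The submitters' processing notes name kallisto, DESeq2 and GRCh38, and versions are not given in the sources used here. Dividing by each library's smallest step gave whole numbers (within 0.01) for 100% of values, called reads here. Kallisto estimates counts, and rounded estimates would look the same. Genes with a mean of at least 10 were tested as log2(value + 1), which understates the change of low genes, with limma 3.58.1 in R 4.3.3 (eBayes with trend, all groups of a table in 1 fit), Benjamini-Hochberg adjusted over all genes tested. Tables were not compared with each other. Levels are per gene and not per length, so genes are not ranked by level.

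Members and lists were chosen with earlier results of these data known. All 10 members are named in every comparison. From each list and table, up to 3 genes are named, those with the largest change among called genes with groups that did not overlap (in the INO80 experiment by the smaller of the changes with the 2 siRNAs, in the drug experiment by siMCRS1 in DMSO). Genes most like a member were ranked by the smaller of its r in the 2 tables.

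Alternatives were a pseudocount of 0.1 or 5, no filter or a mean of at least 50, equal totals, quantile normalization, eBayes without trend, only the groups compared, the replicate letter as a block, each library left out and, added after the values were seen, edgeR 4.0.16 quasi-likelihood with TMM and a block on the drug columns' numbers. The letters of the labels paired NTG with siINO80#1 (correlation of deviations from the group means 0.14 to 0.26 in the 3 same-letter pairs). The 6 other pairs were at -0.22 to -0.04. Deviations cancel within a group, which pushes other pairs negative where same-letter pairs are positive, so the letters are not judged by that contrast. They did not pair either group with siINO80#2 (-0.08 to 0.13). Scripts were tested on simulated data. Promoters are from RefSeq, overlaps of exons from GENCODE v44 on GRCh37 by name. Scripts used Python 3.11.15 with numpy 2.4.6, pandas 2.3.3 and matplotlib 3.10.9. Intervals and floors cover counting error only where they rest on reads.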

Additional observations from a re-analysis of the deposited data

How the results depend on the processing

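Of 25 called values of the members, 22 kept their call and direction under every alternative run, and the exceptions were ABCC2 with siINO80#1, BAAT between the INO80 siRNAs and KLB with siMCRS1 in EPZ-6438. Of 31 values that were not called, 5 were called under some alternative: BAAT and FGFR4 with siINO80#1, FGFR4 with EPZ-6438 and NTG, ABCC2 with siMCRS1 in EPZ-6438 (without the third EPZ-6438 NTG library) and ABCC2 between the INO80 siRNAs (quantile normalization, 0.22, adjusted p = 0.0497). Besides the values in the report, ABCC2 with siINO80#1 was not called with quantile normalization (0.10, adjusted p = 0.308) or without the filter (0.0676). BAAT between the siRNAs was not called without the filter (0.0503), with equal totals (0.069), without a trend (0.0821) or with only the groups compared (0.0785), and with only the groups compared BAAT with siINO80#1 was called (0.0206). The cause was not tested. The number of members called stayed at 4 to 6 with siINO80#1, at 6 with siINO80#2, at 3 to 5 between the siRNAs, at 5 with siMCRS1 in DMSO, at 4 to 6 in EPZ-6438 and at 0 for the interaction and for EPZ-6438, except in a blocked fit. The number of all genes called changed as well, as the splits with equal totals above show. With the replicate letter as a block 5, 6 and 4 members were called in the 3 INO80 comparisons, and no member's call changed. Of the 14034 genes tested, the blocked fit called 6327, 8127 and 3590. The main fit called 2912 higher and 2921 lower, 3733 and 3992, and 1330 and 1766 in the same order. In the drug experiment, column numbers are shared by 3 groups, and same-number correlations of deviations were -0.02 to 0.30 (7 pairs, mean 0.21). At most 2 of these pairs stand in a comparison with DMSO NTG. The mean over 14 other pairs was -0.10. Deviations cancel within a group, which pushes other pairs negative where same-number pairs are positive, so this mean is no independent contrast. A block on the number over these 8 libraries, added after seeing the data, called the same 5 members for siMCRS1 in DMSO. It called 8000 of all genes there, against 6631 in the same libraries unblocked. For EPZ-6438 with NTG it called 1 member, FGFR4 (0.38, adjusted p = 0.0442), and 1161 of all genes, against 0 members and 59 genes in the same libraries unblocked. The EPZ-6438 siMCRS1 columns carry letters, so no paired analysis was possible in comparisons with that group. FGF19, ABCB11 and SLC10A1 are limited by depth, with at most 15 reads in a library.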
